A study of Rattus norvegicus with 6 samples.

Results

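The transcripts of 3 genes of the hypoxia response, Hif1a, Vegfa and Slc2a1, were followed in rat kidney after sub-total nephrectomy. They were taken by their Ensembl identifiers, ENSRNOG00000008292, ENSRNOG00000019598 and ENSRNOG00000007284, out of 23487 genes in the deposited count table. The files hold identifiers without symbols, so the symbols are those supplied with the identifiers and were not checked against an annotation of the build. The rule names the genes by identifier and sets no threshold on a measured value, although they were chosen with earlier results of these data known. All 3 passed the filter on low counts that left 13644 genes for testing.

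Sub-total nephrectomy (SNx) combines partial resection of the right kidney with a later removal of the left kidney, and leaves a remnant that loses function and scars. The study performed it on male Wistar Han rats. It collected the kidneys of SNx rats once serum creatinine or urinary protein had passed a preset threshold, so the time after surgery differed between animals. The data are bulk RNA sequencing libraries of kidney tissue from 3 SNx rats and 3 non-operated rats of the same strain (NoOp). The age of the animals was not given in the sources used here, no genetic modification was named, and the controls had no operation, so loss of kidney tissue and surgery as such cannot be told apart.

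Hif1a encodes the alpha subunit of hypoxia-inducible factor 1, a transcription factor regulated by oxygen mainly through the stability of its protein. With oxygen present, prolyl hydroxylases mark the protein for degradation by the von Hippel-Lindau ubiquitin ligase, and with little oxygen the protein accumulates, pairs with its beta subunit and binds hypoxia response elements in DNA. Vegfa encodes vascular endothelial growth factor A, which podocytes and tubular cells release and which maintains glomerular and peritubular capillaries, and Slc2a1 encodes the glucose transporter GLUT1. Both are textbook target genes of the factor. A transcript count of Hif1a is therefore not a measure of the activity of the factor.

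To show the DNA next to the starts of these genes, the 250 bases before each annotated start were taken from RefSeq promoter windows of the build GRCr8, which matched 3 of 3 symbols. The deposited counts rest on rn6, an earlier build, and the coordinates of these windows apply to GRCr8 alone. The windows are shown because the factor binds a short core, written here as ACGTG or GCGTG, and the capitals mark every match to either of them on either strand.
Hif1a chr6:98359648-98359897 (+): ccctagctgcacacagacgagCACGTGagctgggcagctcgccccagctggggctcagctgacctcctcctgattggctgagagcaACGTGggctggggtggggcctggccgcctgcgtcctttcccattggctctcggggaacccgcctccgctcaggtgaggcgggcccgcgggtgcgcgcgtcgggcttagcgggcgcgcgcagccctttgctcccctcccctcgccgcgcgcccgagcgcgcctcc
Vegfa chr9:22452604-22452853 (+): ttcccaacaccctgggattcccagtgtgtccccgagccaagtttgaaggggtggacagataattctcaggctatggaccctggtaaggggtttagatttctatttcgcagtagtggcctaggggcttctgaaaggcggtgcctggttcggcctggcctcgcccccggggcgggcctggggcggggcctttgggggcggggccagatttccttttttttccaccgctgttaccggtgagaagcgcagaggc
Slc2a1 chr5:138002272-138002521 (+): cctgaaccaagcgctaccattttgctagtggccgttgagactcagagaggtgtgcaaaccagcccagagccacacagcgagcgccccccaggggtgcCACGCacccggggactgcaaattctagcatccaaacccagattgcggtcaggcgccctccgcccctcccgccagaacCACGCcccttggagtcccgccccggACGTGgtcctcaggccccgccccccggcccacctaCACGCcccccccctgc

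The Hif1a window held ACGTG 3 times. A pair of these overlapped, on opposite strands of a palindromic CACGTG, and began 229 and 228 bases before the start, and the other began 164 bases before it. The Slc2a1 window held 1 ACGTG, 51 bases before the start, and 3 matches to GCGTG, all on the opposite strand, at 153, 76 and 16 bases. The Vegfa window held neither core, nor did the corresponding 250 bases of a further annotated Vegfa start. Of all 33469 windows of this length, 16.6% held ACGTG, 25.9% held GCGTG and 36.7% held at least 1 of them. The windows were rich in G and C, at 73.6% for Hif1a, 60.4% for Vegfa and 68.4% for Slc2a1, against a median of 51.2% over all windows. They held 27, 12 and 17 CpG dinucleotides, where the median was 5. These matches describe the letters of the windows and say nothing of binding, and hypoxia response elements further from a start lie outside them.

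None of the 3 transcripts passed the threshold between SNx and NoOp in the test across all genes, an adjusted p under 0.05, which 35.8% of the genes tested did pass, 19.2% higher in SNx and 16.6% lower. Vegfa had the largest difference of the 3, with a mean level of 0.672 times that of NoOp, and an unadjusted p of 0.0460 that became 0.101 after adjustment (limma, Benjamini-Hochberg). Slc2a1 had a mean of 1.15 times that of NoOp, with a limma adjusted p of 0.187. Hif1a had nearly the same level in every library. For each of the 3 genes the SNx and NoOp libraries overlapped, whereas the groups did not overlap for 51.6% of all genes tested. Levels are given as CPM, the count of a gene relative to the size of its library, after library sizes were scaled with TMM, the trimmed mean of M-values, which corrects for differences in composition. In whole tissue, fewer cells of a type and less RNA per cell cannot be told apart.

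**Figure D1:**
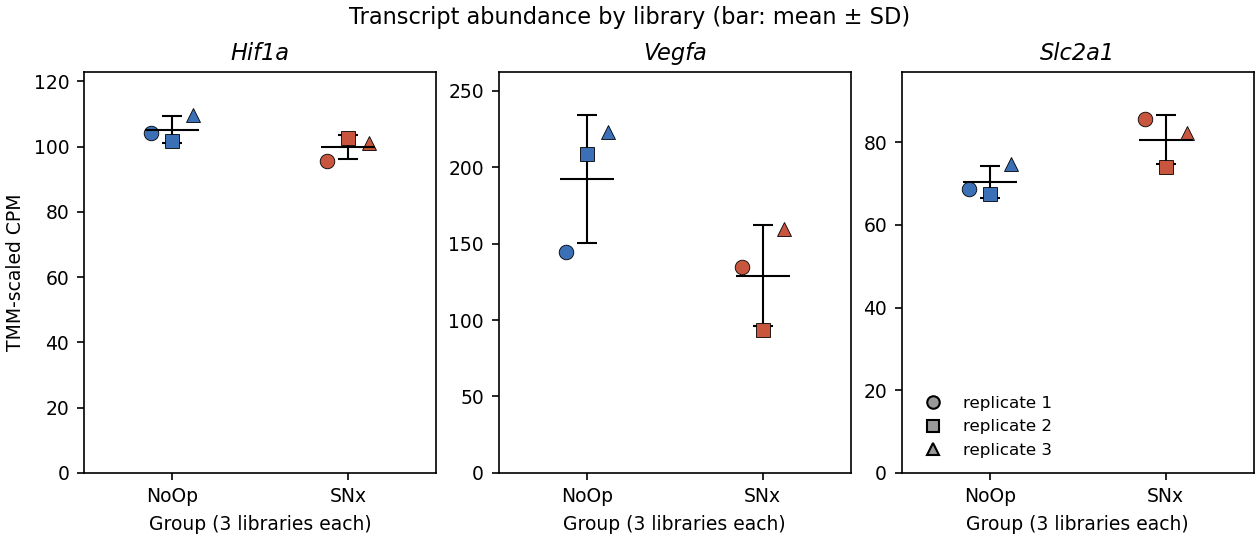
TMM-scaled CPM (y axis, from 0, with its own scale for each gene) of Hif1a, Vegfa and Slc2a1 in 3 NoOp and 3 SNx libraries, with 1 point for each library, its shape for the replicate number, and a bar for mean ± SD. The groups overlap in each panel, by the widest margin for Vegfa, where NoOp replicate 1 at 144 lies below SNx replicate 3 at 159.

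Hif1a, the oxygen-regulated subunit, had estimated counts of 1073, 1286 and 1142 in replicates 1, 2 and 3 of NoOp and of 993, 1327 and 958 in those of SNx. After scaling these were 104, 102 and 109.7 CPM in NoOp and 95.6, 103 and 101 CPM in SNx. SNx replicate 1 was the lowest library and NoOp replicate 3 the highest, and the other 4 lay between 101 and 104 CPM. The means were 105 ± 4.04 CPM in NoOp and 99.8 ± 3.68 CPM in SNx (SD, n = 3 each). SNx minus NoOp was -0.08 on the log2 scale (standard error 0.10, limma adjusted p 0.568). The 95% confidence interval of this difference, from -0.31 to 0.15, corresponds to 0.809-fold to 1.11-fold.

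Hif1a was also among the steadiest transcripts within each group. The SD of its log2 CPM was 0.0550 in NoOp and 0.0536 in SNx, and 8.36% of the genes tested in NoOp and 5.06% in SNx had a smaller SD. The median SD over all genes was 0.18 in NoOp and 0.23 in SNx. The mean log2 CPM of Hif1a was above that of 87.5% of the genes tested, and the SDs were not compared at matched abundance. Counting error alone gives an SD of 0.0427 in NoOp and 0.0458 in SNx at the depth of these libraries. An SD of 3 libraries is imprecise, and noise from library preparation was not measured.

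Vegfa, the angiogenic ligand, had estimated counts of 1486, 2641 and 2324 in replicates 1, 2 and 3 of NoOp and of 1398, 1210 and 1508 in those of SNx. These corresponded to 144, 209 and 223 CPM in NoOp and to 135, 93.5 and 159 CPM in SNx. NoOp replicates 2 and 3 were the highest libraries and SNx replicate 2 the lowest, while NoOp replicate 1 lay between SNx replicates 1 and 3. The means were 192 ± 41.9 CPM in NoOp and 129 ± 33.2 CPM in SNx (SD, n = 3 each). SNx minus NoOp was -0.57 on the log2 scale (standard error 0.24, limma adjusted p 0.101). The 95% confidence interval for this 1 gene, not adjusted for the number of genes, ran from -1.13 to -0.01, or from 0.458-fold to 0.991-fold.

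The Vegfa adjusted p of 0.101 (limma) lay above the threshold, and 45.7% of all genes tested had a smaller p. An unadjusted p under 0.05 was found for 46.7% of all genes tested. The adjusted p was 0.0369 without SNx replicate 3 (limma), with a log2 fold change of -0.75, and 41.2% of the genes tested passed in that fit. It was 0.0269 with weights for library quality in voom (limma), with a log2 fold change of -0.69, where 42.2% of the genes passed. Over all 17 other settings the adjusted p ranged from 0.0269 to 0.276, and the log2 fold change stayed negative in each of them, from -0.78 to -0.36. Without SNx replicate 2, the library with the least Vegfa, the log2 fold change was -0.37 and the limma adjusted p 0.221. The limma adjusted p was 0.154 without SNx replicate 1. Without NoOp replicates 1, 2 and 3 it was 0.0526, 0.210 and 0.276, so none of these fits passed.

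In contrast to Hif1a, Vegfa varied widely between libraries of the same group. The SD of its log2 CPM was 0.34 in NoOp and 0.39 in SNx, larger than that of 77.5% and 74.3% of the genes tested. The SD expected from counting was 0.03 in NoOp and 0.04 in SNx, well below the spread between the libraries. The study gives RNA integrity only as a wide range over all its samples, which extends to very low values. Since each animal gave a single library, differences between animals, RNA integrity and library preparation cannot be told apart in this spread.

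The spread went partly with the numbers in the library titles, which fall into 2 ranges whose meaning the labels do not give. The first range holds NoOp replicate 1 with SNx replicates 1 and 2, and the second holds NoOp replicates 2 and 3 with SNx replicate 3. Within the first range the mean log2 CPM of Vegfa was 7.18 in NoOp and 6.81 in SNx, a difference of -0.36, and within the second it was 7.76 and 7.32, a difference of -0.44. The groups did not overlap within either range. The same was so for Hif1a, with differences of -0.08 and -0.06, and for Slc2a1, with 0.21 in each range. With only 3 libraries in a range this held for 64.2% of all genes tested, so it is not particular to these genes.

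With the range as a term in the model, the log2 fold change of Vegfa between SNx and NoOp was -0.40 and its standard error 0.16, against 0.24 without the term, and the limma adjusted p was 0.101. In this fit 32.7% of all genes passed the threshold for SNx against NoOp. The second range was above the first by 0.54 for Vegfa, with a standard error of 0.16, an unadjusted p of 0.0129, or 0.295 after adjustment (limma). The same term was 0.03 for Hif1a and 0.05 for Slc2a1, with standard errors of 0.10 and 0.11. For this term 1 gene passed, or 0.00733% of those tested.

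Vegfa was also set beside the overall position of each library. The first principal component of the log2 CPM values, computed without the 3 genes, carried 74.2% of the variance and set SNx apart from NoOp. NoOp replicates 1, 2 and 3 scored -59.4, -56.1 and -65.8, and the same replicates of SNx scored 69.8, 81.01 and 30.5. SNx replicate 3 lay closest to the NoOp libraries and had the most Vegfa of the SNx group, at 7.32 log2 CPM, while SNx replicate 2 lay furthest away and had the least, at 6.55. SNx replicate 1 took the middle place on both measures. How many other genes order the SNx libraries in this way was not counted, so the order is not shown to be particular to Vegfa. SNx replicate 3 is also the only SNx library in the second range of title numbers. Its place on the component and its range therefore cannot be told apart. Among the NoOp libraries the scores differed little, although Vegfa ranged from 7.18 to 7.80. These are 3 points in each group, and no correlation was computed because the libraries form separate clusters.

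**Figure D2:**
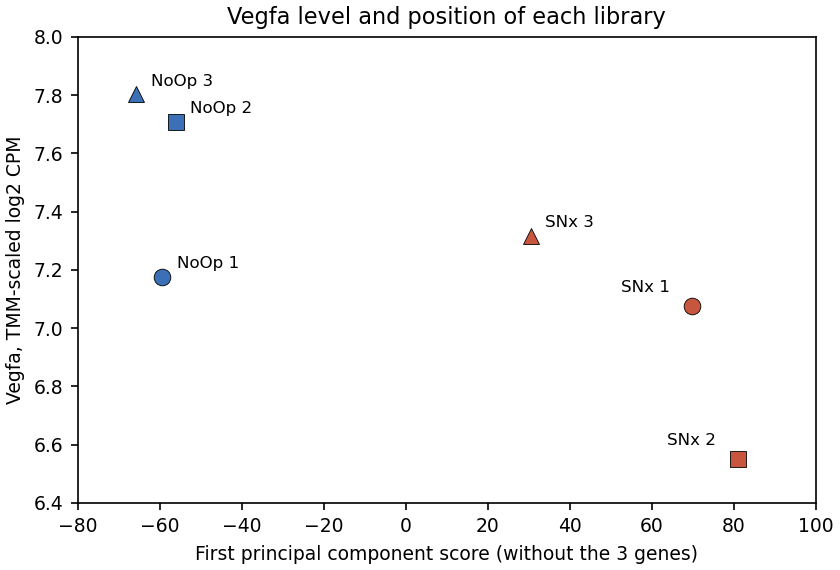
TMM-scaled log2 CPM of Vegfa (y axis) against the score of each library on the first principal component (x axis, no unit), computed without the 3 genes, with 1 labelled point for each library. From SNx replicate 3 to SNx replicates 1 and 2 the score goes from 30.5 to 69.8 and 81.01 and the Vegfa level from 7.32 to 7.07 and 6.55, and the NoOp libraries, all with scores below -56, range from 7.18 to 7.80.

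Slc2a1, the glucose transporter, had estimated counts of 707, 852 and 778 in replicates 1, 2 and 3 of NoOp and of 889, 959 and 778 in those of SNx. The scaled values were 68.7, 67.4 and 74.7 CPM in NoOp and 85.6, 74.1 and 82.2 CPM in SNx. SNx replicates 1 and 3 exceeded every NoOp library, while SNx replicate 2 lay just below NoOp replicate 3. The means were 70.3 ± 3.89 CPM in NoOp and 80.6 ± 5.90 CPM in SNx (SD, n = 3 each). SNx minus NoOp was 0.20 on the log2 scale (standard error 0.11, limma adjusted p 0.187), and the 95% confidence interval ran from -0.05 to 0.45, or from 0.965-fold to 1.36-fold. The SD within a group was 0.08 in NoOp and 0.11 in SNx on the log2 scale, with a smaller SD in 15.7% and 17.4% of the genes tested, and 0.05 is expected from counting in either group.

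The Slc2a1 call depended on the scaling. With library size alone the log2 fold change was 0.42 and the limma adjusted p 0.0261, in a setting where 35.1% of all genes passed. The median over all genes was then shifted to 0.24, and relative to it Slc2a1 stood at 0.18. On that scale the sign of Hif1a turned, to 0.15, and relative to the median it was -0.09. Vegfa was -0.36, or -0.60 relative to the median. The authors' normalized values gave the same order of the genes, with log2 fold changes of -0.08 for Hif1a, -0.56 for Vegfa and 0.22 for Slc2a1 and limma adjusted p of 0.519, 0.103 and 0.150, where 36.3% of the 12135 genes of that table passed. There the Slc2a1 groups no longer overlapped, since SNx replicate 2 was at 6.2197 and NoOp replicate 3 at 6.2164, and the groups did not overlap for 51.6% of the genes of that table either.

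**Figure D3:**
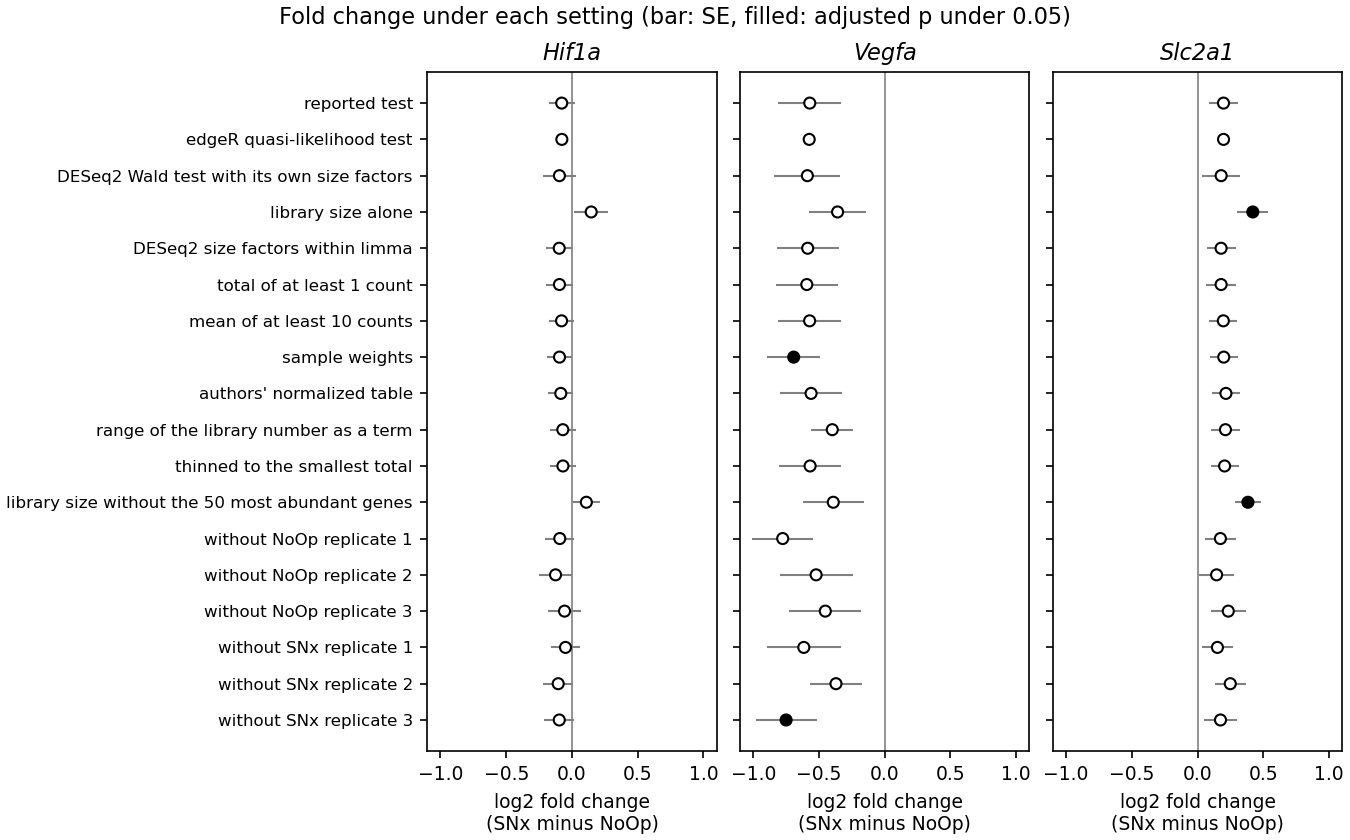
Log2 fold change of SNx over NoOp (x axis) for Hif1a, Vegfa and Slc2a1 in the reported test and under 17 other settings (rows), with bars for the standard error, which the quasi-likelihood test does not give, and filled points for an adjusted p under 0.05. Hif1a stays between -0.12 and 0.15, Vegfa stays negative in every row with 2 filled points, and Slc2a1 stays positive with 2 filled points, both for library sizes without scaling factors.

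Ratios between the 3 transcripts within a library hardly depend on how libraries are scaled. Because the ratio of a pair also reflects the lengths of the transcripts, only its difference between the groups is read. The log2 ratio of Vegfa to Slc2a1 was 1.07, 1.63 and 1.58 in replicates 1, 2 and 3 of NoOp and 0.65, 0.33 and 0.95 in those of SNx. Every SNx library lay below every NoOp library, and the means were 1.43 ± 0.31 and 0.65 ± 0.31 (SD, n = 3 each), a difference of -0.78. The exact two-sided permutation p was 0.1, the smallest that 3 libraries against 3 can give, and 0.15 after adjustment over the 3 pairs. For comparison, the ratio to Slc2a1 did not overlap between the groups for 52.3% of all other genes, and the ratio to Vegfa for 42.4%.

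The log2 ratio of Hif1a to Slc2a1 was 0.60, 0.59 and 0.55 in the NoOp libraries and 0.16, 0.47 and 0.30 in the SNx libraries. Again the groups did not overlap, as was so for the ratio of 50.3% of all other genes to Hif1a, and the difference was -0.27 (exact two-sided permutation p 0.1, adjusted 0.15). The 3 NoOp values lay within 0.05 of each other, with an SD of 0.03, while the SD in SNx was 0.15. The ratio of Hif1a to Vegfa was -0.47, -1.04 and -1.02 in NoOp and -0.49, 0.13 and -0.65 in SNx. These overlapped, and the difference of 0.51 had an exact two-sided permutation p of 0.3, also 0.3 after adjustment. Without SNx replicate 2 the difference of this pair was 0.27, and without NoOp replicate 1 it was 0.69. The differences of all 3 pairs kept their sign when any 1 library was left out.

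**Figure D4:**
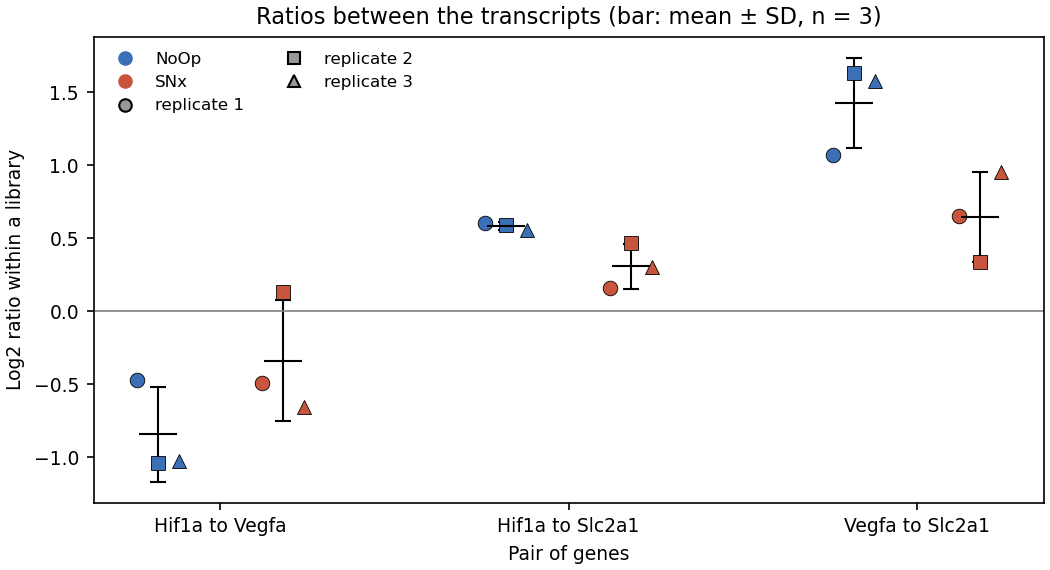
Log2 ratio within a library (y axis) for the 3 pairs of genes (x axis), with 1 point for each NoOp and SNx library and bars for mean ± SD (n = 3). The NoOp and SNx points are apart for Hif1a to Slc2a1, by -0.27 on average, and for Vegfa to Slc2a1, by -0.78, and overlap for Hif1a to Vegfa.

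The genes with the most similar pattern were sought by the root mean square difference between mean-centred log2 CPM values over the 6 libraries, among 10036 other genes with a mean of at least 3 on that scale. They are named by identifier, were chosen by this measure and are a description without a test. The nearest to Vegfa was ENSRNOG00000046727, at a distance of 0.05, where the median gene was at 0.46. It had log2 CPM values of 4.49, 5.02 and 5.03 in replicates 1, 2 and 3 of NoOp and of 4.30, 3.86 and 4.52 in those of SNx, so that NoOp replicate 1 was again the lowest of its group and SNx replicate 2 the lowest of all. The next genes by distance were at 0.07 and 0.12. The nearest gene to Slc2a1 was ENSRNOG00000016459, at 0.04 against a median of 0.28, and the nearest to Hif1a was ENSRNOG00000009954, at 0.02 against a median of 0.25. Between the 3 genes themselves the distances were 0.16 for Hif1a and Slc2a1, 0.40 for Hif1a and Vegfa, and 0.46 for Vegfa and Slc2a1, so none of them was the closest match of another.

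The deposited counts summed to between 11183768 and 13140864 in NoOp and to between 9572955 and 10707643 in SNx, with every SNx library smaller than every NoOp library. With every library thinned to the smallest total, which was tried after seeing the data, the log2 fold changes were -0.07 for Hif1a, -0.57 for Vegfa and 0.21 for Slc2a1. The other genes of the oxygen-sensing pathway, the VEGF receptors, the other glucose transporters and the kidney and blood cell markers were not analysed here, because the files and the reference table used do not pair identifiers with symbols. The kidney label was therefore not checked against marker genes, and the part of cell composition in the Vegfa and Slc2a1 values was not tested.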

How the data were processed

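Ribosomal RNA-depleted, strand-specific, paired-end libraries of kidney from 3 SNx and 3 NoOp rats were analysed, grouped by the treatment label and numbered in order of deposition. The labels list polyA RNA as the molecule. Each library is 1 animal by the study's methods. The authors quantified transcripts against rn6 by selective alignment (the submitters' processing notes name Salmon, version not given in the sources used here), summarised them per gene as length scaled TPM with tximport and applied voom in limma. They deposited estimated counts as whole numbers for 23487 genes and normalized log2 CPM values for 12135 genes. Whether the counts carry the length scaling was not settled. The 12 single-library files equalled the series tables.

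Here, the function filterByExpr (edgeR 4.0.16, minimum count 10, minimum total 15) left 13644 genes. After TMM scaling and voom, a linear model with the group alone was fitted (limma 3.58.1, R 4.3.3). The p-values are two-sided and were adjusted over the genes tested by the Benjamini-Hochberg method, at a threshold of 0.05. Log2 CPM values in the text have a prior count of 2. Confidence intervals are those of limma. Ratios between genes were tested by exact permutation over the 20 assignments of the libraries. The scripts were tested on simulated data. That check allowed a share of false calls above 0.05, and a larger share for DESeq2 than for the other tests. It therefore does not establish the error rate at the threshold. Counting errors assume independent reads and cover counting error only.

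The genes, the lists and the tests were chosen with earlier results of these data known. The text names the 3 genes and, for each, the nearest gene in pattern. The analysis plan had asked for near genes with a symbol and for 147 symbols in 13 pathway and marker lists. Of the identifiers in the files, 0 matched the reference table, so the clause on symbols was dropped and the lists were not analysed here. A list of the study pairs part of the identifiers with symbols but was at hand only in part, ordered by its own p-values, and was not used, since the genes it names are selected by the outcome. DESeq2 1.42.0, the quasi-likelihood test, other scalings and filters, sample weights, the normalized table, the range of the library number and leaving out each library were the alternatives.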

Additional observations from a re-analysis of the deposited data

How the results depend on the processing

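No paired analysis was made, since the 2 groups are different animals and no pairing is described. The labels give no replicate numbers, and the numbers used here only name the libraries. For each of the 3 genes, 15 of 17 other settings kept the direction and the side of the threshold. Hif1a changed sign, to 0.15 with library size alone and to 0.11 with library size without the 50 most abundant genes. In the same settings Slc2a1 passed the threshold, at 0.42 and 0.38 (limma adjusted p 0.0261 and 0.0191). The median log2 fold change over all genes was 0.24 and 0.20 in these settings, against 0.015 in the reported test. Which scaling is the better one for these data was not tested. Vegfa passed with sample weights, at -0.69 (limma adjusted p 0.0269), and without SNx replicate 3, at -0.75 (0.0369). The cause was not tested. DESeq2 gave Vegfa an adjusted p of 0.0516 and edgeR 0.0971. Leaving out 1 library at a time gave -0.12 to -0.05 for Hif1a, -0.78 to -0.37 for Vegfa and 0.14 to 0.25 for Slc2a1. The number of genes that passed, 4891, ranged from 2857 without NoOp replicate 3 to 5764 without SNx replicate 3, was 3124 without NoOp replicate 2, and lay between 4399 and 5760 with all libraries. The differences in the ratios moved by less than the pooled SD of both groups in all 9 other settings, although that of Hif1a to Slc2a1 moved by more than the SD of NoOp alone, 0.03, without SNx replicate 1 (-0.20) or SNx replicate 2 (-0.35). Leaving out 1 library gave them from 0.27 to 0.69 for Hif1a to Vegfa, from -0.35 to -0.20 for Hif1a to Slc2a1 and from -0.96 to -0.62 for Vegfa to Slc2a1. Thinning, library size without the most abundant genes and the range term for the ratios were chosen after seeing the data. The planned counts over pathway lists were not run, since the reference table matched none of the identifiers and a partial list of the study, ordered by its p-values, was not used.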
